A study of Rattus norvegicus with 24 samples.

Results

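The comparison concerns rats that never took methamphetamine (METH) but received footshocks they could not control, set against rats that received none. The 3 yoked rats (YSS) were male Sprague-Dawley rats that had self-administered saline. Each was then coupled to a METH-trained, shock-sensitive rat, so that every punished infusion of the partner brought the yoked rat a footshock and an infusion of saline. The 6 controls (CT) were of the same sex and strain and self-administered saline under the same conditions without shocks. Rats of both groups were killed about a month after the shocks had ended, a day after a second test with the cues of the lever. The dorsal striatum of each rat was read on 1 Affymetrix rat transcriptome array, so that 9 of the 24 arrays of the series enter the comparison, chosen by their titles. All 68842 transcript clusters of the array that are not control probes were compared, of 70580 measured in all. The other 15 arrays came from 6 shock-resistant (SR) rats, 6 shock-sensitive (SS) rats and 3 rats yoked to SR rats (YSR), which received the shocks of partners that kept pressing for METH.

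The dorsal striatum is built mainly of medium spiny neurons, inhibitory cells that carry either the D1 or the D2 dopamine receptor and that receive glutamate from the cortex and thalamus and dopamine from the midbrain. It borders the cortex and claustrum laterally, the nucleus accumbens ventrally and the choroid plexus of the lateral ventricle medially. Footshock that an animal cannot control is a common laboratory stressor. It acts on the striatum within minutes through dopamine and glucocorticoids, and through immediate early genes, whose transcripts normally last for hours. A sample taken a month later reads what remained or what developed after that time.

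Values are log2 signals, on which a step of 1 unit is a doubling of brightness. They ran from 1.97 to 19.93, and the medians of the 24 arrays lay between 5.11 and 5.318. The level of bioB, a bacterial transcript spiked into each sample, averaged 9.32 over the 24 arrays and serves below as the border between bright and dim clusters. The 9 arrays correlated between 0.9883 and 0.9961 across clusters. Markers of medium spiny neurons were bright in both groups, with means of 15.5 in CT and 14.8 in YSS rats for the D2 dopamine receptor gene Drd2, and of 16.1 and 16 for the enkephalin gene Penk. The arrays nevertheless differed in tissue. The choroid plexus gene Kl lay above bioB in 1 of 6 CT arrays (replicate 6) and in 1 of 3 YSS arrays (replicate 3), and the mean of 15 choroid plexus genes was 10.9 in CT replicate 6 against 6.23 to 6.76 in the other CT arrays. The mean of 15 genes of cortical pyramidal neurons was low in CT replicates 6 (8.18) and 5 (8.63) beside 9.4 to 9.78 in the other 4 CT arrays and 9.86, 10.1 and 9.76 in the YSS arrays. The mean of 11 genes of mature oligodendrocytes was 11.7 in YSS replicate 2 against 13.3 and 13.1 in the other YSS arrays and 12.9 to 13.6 in CT arrays. In whole tissue, fewer cells of a type and less RNA per cell cannot be told apart. The labels give no litter or batch, so neither can be told apart from the groups. The p-values measure the spread between rats, in the limma fit a spread shared by all 24 arrays, METH rats included. The permutation p-values use the 9 arrays alone.

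The YSS rats had higher mean signals than CT rats for genes such as Nr4a2, Pde1a, Atp2b4 and Wfs1. They had lower mean signals for globins and, in 1 rat, lower signals for genes of myelin. None of these differences passed a correction over the whole array. In Nr4a2, Pde1a and Atp2b4 the lowest signals were those of CT replicates 6 and 5. The YSS values of the globin genes Hba2 and Hbb-b1 lay within the CT range. At the study's limits, an unadjusted p under 0.05 with a difference of at least 1.7-fold, here applied to all clusters and called the criterion below, 247 clusters (0.359% of those tested) differed, 165 of them higher in YSS rats (0.24%) and 82 lower (0.119%). The study applied these limits only to clusters above bioB in CT rats, and with that filter 61 clusters met them in limma, 24 higher and 37 lower. The study itself reported a similar total for this contrast, but with more higher than lower transcripts. Why the balance differs here was not tested. Without a fold limit, 3551 clusters (5.16%) had an unadjusted p under 0.05 in the limma fit, and 0 had a Benjamini-Hochberg adjusted p under 0.05, the smallest being 0.238. Ordinary ANOVA called 139 clusters at the criterion, 2924 at an unadjusted p under 0.05 and 0 after adjustment. Every named gene below with a p under 0.05 had an adjusted p of 0.954 in limma unless another value is given. Beside the limma p, an exact permutation p over the 84 ways to choose 3 of the 9 arrays is given, which cannot be smaller than 0.0119. In 880 clusters all YSS arrays lay above all CT arrays (1.28%), and in 608 all lay below (0.883%). The median difference over all clusters was 0.014.

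With 1 cluster for each of 19412 named genes, 52 genes were higher (0.268%) and 37 lower (0.191%) at the criterion, all YSS arrays lay above all CT arrays in 1.72% of genes and below in 1.47%, and 49.8% of genes had the higher mean in YSS rats. Among the 4264 bright genes there were 18 higher (0.422%) and 24 lower (0.563%). Coding clusters supplied 56 of the 165 higher and 41 of the 82 lower ones, noncoding clusters 61 and 20, and unassigned clusters 45 and 15. These calls were 0.392% of 24753 coding, 0.282% of 28724 noncoding and 0.554% of 10838 unassigned clusters, beside 0.359% of all clusters. In 34 of the 52 higher named clusters (65.4%) the lowest 2 CT arrays were replicates 5 and 6, which was so in 10.8% of all named clusters. In the 39 lower named clusters CT replicate 2 was the highest CT array in 21, against 3330 of all 20383 named clusters. CT replicate 5 was the lowest CT array in 22 of the 39, which was not counted over all named clusters. The 39 include globin clusters that may share signal, so they are not all separate cases. In 23 of the 39 (59%) YSS replicate 2 was the lowest YSS array, against 39.3% of all named clusters.

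**Figure D1:**
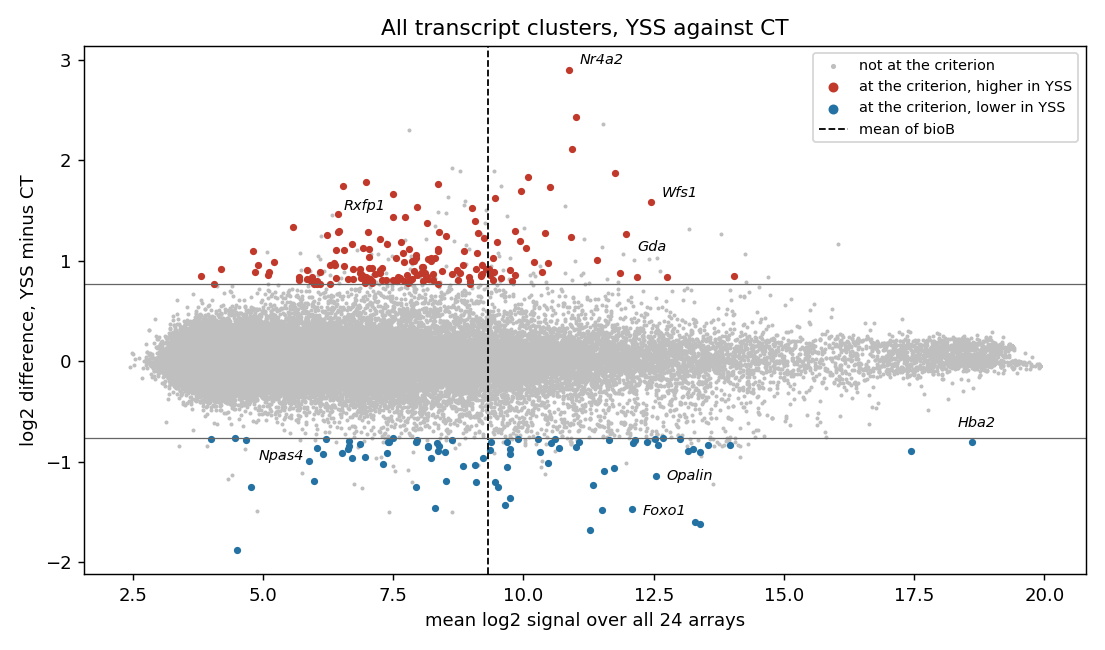
Each point is 1 of 68842 transcript clusters, with the mean log2 signal over all 24 arrays on the x axis and the log2 difference, YSS minus CT, on the y axis. The horizontal lines mark the fold limit of 1.7 and the dashed line the mean of bioB (9.32); the 165 higher clusters at the criterion are mostly dim, and Nr4a2 has the largest difference.

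Among bright named genes Nr4a2, Pde1a, Atp2b4 and Rasgrf2 had the largest positive differences, 1.62 to 2.90 on the log2 scale, and in each the 3 YSS arrays lay above all 6 CT arrays. Nr4a2 encodes the nuclear receptor Nurr1, which midbrain dopamine neurons need to develop and which marks the claustrum and deep cortex. Pde1a encodes a phosphodiesterase that calmodulin switches on, Atp2b4 a calcium pump of the plasma membrane, and Rasgrf2 an exchange factor that couples calcium to Ras. Nr4a2, as the leading gene, and Atp2b4, picked because it holds a motif match, are shown by the 250 bases before their annotated start. The bases were taken from RefSeq (build GRCr8) and written 5′ to 3′ in lower case, with matches to 5 motifs in capitals. The windows of Pde1a and Rasgrf2 are not shown.
Nr4a2, chr3:62104888-62105137 (minus strand): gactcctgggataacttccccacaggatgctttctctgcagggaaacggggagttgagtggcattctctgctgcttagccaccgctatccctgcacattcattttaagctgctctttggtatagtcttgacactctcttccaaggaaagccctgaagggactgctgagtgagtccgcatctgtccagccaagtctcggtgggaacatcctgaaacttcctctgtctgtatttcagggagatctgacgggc
Atp2b4, chr13:47758877-47759126 (minus strand): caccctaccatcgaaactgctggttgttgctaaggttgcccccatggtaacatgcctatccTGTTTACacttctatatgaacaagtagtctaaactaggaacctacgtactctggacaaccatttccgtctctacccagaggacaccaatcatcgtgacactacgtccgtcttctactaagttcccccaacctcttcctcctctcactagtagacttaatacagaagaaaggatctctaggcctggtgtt
The motifs, searched on both strands, were the cyclic AMP element TGACGTCA, the Nr4a element AAAGGTCA, the forkhead (FOXO) element TGTTTAC, the Egr element GCGGGGGCG and the TATA box TATAAA. Of 33469 RefSeq promoters of this length, 1.59%, 1.24%, 3.21%, 2.45% and 12.9% held them. Promoters were found for 42 of the 52 higher gene symbols, with a match in 2, 0, 3, 1 and 3 genes, and for 29 of 38 lower symbols, with a match in 0, 0, 1, 0 and 7. A gene counted if any of its promoters matched, while the shares are per promoter, so counts and shares cannot be compared directly. The 7 lower genes with a TATA box include the similar globin genes Hbb-b1, Hbb-bs and Hbbl1. The Atp2b4 window holds a forkhead match 189 bases before the start, and the Nr4a2 window none of the 5. A match is a run of letters and no measured site.

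Nr4a2 (chromosome 3, 43111258 to 43128493 on the minus strand in the array's annotation, whose genome build is not named) had log2 signals of 13.13, 12.92 and 12.19 in YSS rats. In CT rats it ran from 6.771 through a median of 10.31 to 11.55. All YSS values were above the CT range, and the CT values were themselves widely spread, with the lowest 2 in replicates 6 and 5 (8.665). The difference was 2.9 ± 1.17 (SE), or 7.46-fold (limma p = 0.021, exact permutation p = 0.0357). Nr4a2 missed the criterion without CT replicate 6 (2.28), without YSS replicate 1 (2.71), without YSS replicate 2 (2.81) and with a replicate block (2.05). With the means of choroid plexus and cortical genes of each array as covariates it missed it at 0.96.

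Pde1a stood at 11.93, 12.31 and 12.31 in YSS rats, against 7.821, 10.75 and 11.39 as the lowest, median and highest of CT rats. The groups were apart by 2.11 ± 0.872 (SE), or 4.32-fold (limma p = 0.0239, exact p = 0.0595). Atp2b4 showed the same shape. Its YSS values were 12.47, 13.08 and 13.25 and its CT values ran from 9.523 to 12.09, a difference of 1.87 ± 0.856 (SE) (limma p = 0.0394, exact p = 0.0595). Rasgrf2 was at 10.6, 9.95 and 10.76 in YSS rats and between 7.239 and 9.73 in CT rats, 1.62 ± 0.742 (SE) apart (limma p = 0.0395, exact permutation p = 0.0238). With the covariates these 3 differences were 0.68, 0.48 and 0.82 for Pde1a, Atp2b4 and Rasgrf2, and none of the 3 passed. Without CT replicate 6 alone they were 1.66, 1.56 and 1.55, and again none passed. All 3 also missed the criterion without CT replicate 5 (1.77, 1.58 and 1.31) and without YSS replicate 3 (2.05, 1.71 and 1.46). Pde1a (2.05) and Atp2b4 (1.8) missed it without YSS replicate 2, and Rasgrf2 without CT replicate 2 (1.56) and without YSS replicate 1 (1.54).

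Among the bright higher genes that were followed through alternative settings, Wfs1 and Gda held up best. Wfs1 encodes wolframin, a membrane protein of the endoplasmic reticulum that takes part in calcium storage, and Gda encodes guanine deaminase, which breaks down guanine. Both were placed on a list of 14 measured genes of the ventral and medial striatum. Wfs1 read 13.22, 12.69 and 13.88 in YSS rats and 10.57, 11.76 and 12.57 as the lowest, median and highest of CT rats. The groups did not overlap, and the difference was 1.58 ± 0.521 (SE), or 2.99-fold (limma p = 0.00589, exact permutation p = 0.0238). It kept the criterion in all 22 alternatives run, with differences from 1.21 to 1.94. Gda read 12.53, 12.3 and 13.17 in YSS rats against 10.64, 11.33 and 12.06 in CT rats. Its difference of 1.26 ± 0.467 (SE) had a limma p of 0.0127 and an exact permutation p of 0.0119, the smallest that 3 against 6 arrays allow. It missed the criterion without YSS replicate 3 (1.01) and with the covariates (0.69).

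Of the 14 genes of the ventral and medial striatum 3 were higher at the criterion and 0 lower, beside 0.268% and 0.191% of all named genes. In 8 the mean was higher, and the median difference was 0.19, beside 0.014 over all clusters. Wfs1 and Gda were known from earlier results of these data when the list was chosen, so the count of calls is no independent support. Beside Wfs1 and Gda the called gene was Nts, the precursor of the neuropeptide neurotensin. It read 9.112, 7.671 and 9.071 in YSS rats and 7.326 to 8.238 in CT rats, so that YSS replicate 2 lay among the controls (difference 0.88 ± 0.329 (SE), limma p = 0.0133, exact p = 0.0595). Zcchc12 (0.59, limma p = 0.198, exact p = 0.19) and Cartpt, the precursor of the CART peptide (-0.29, limma p = 0.373, exact p = 0.369), did not pass. Of 5 genes of the lateral striatum all 5 means were lower and 0 passed, with a median of -0.32 (list values are differences, YSS minus CT, on the log2 scale), and Reln, which encodes the secreted protein reelin, was nearest with -0.71 (limma p = 0.0524, exact p = 0.0952). Without YSS replicate 3 the median of these 5 genes was 0.13.

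**Figure D2:**
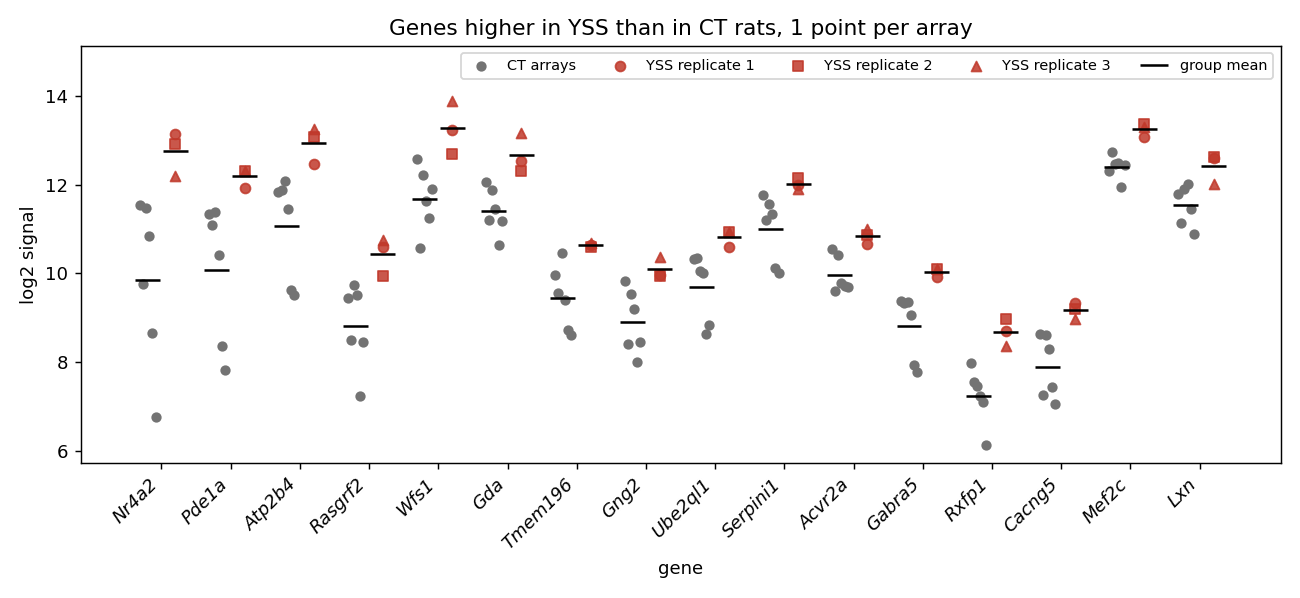
Log2 signals of 16 genes higher in YSS rats at the criterion, with 1 grey point per CT array, 1 red symbol per YSS array (the shape gives the replicate) and a bar at each group mean. The YSS values of Nr4a2 lie between 12.19 and 13.13, above the CT range of 6.771 to 11.55, and the lowest CT points of most genes come from CT replicates 5 and 6.

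Further bright genes were higher at the criterion by smaller differences. Gng2, a gamma subunit of G proteins, differed by 1.19 ± 0.571 (SE) (limma p = 0.0487, exact p = 0.0238), and Acvr2a, a receptor for activin, by 0.89 ± 0.336 (SE) (limma p = 0.0142, exact p = 0.0119). In both genes the groups did not overlap. Tmem196, a transmembrane protein gene, was nearly equal in the 3 YSS rats, at 10.65, 10.59 and 10.69, above a CT range of 8.609 to 10.45 (difference 1.19 ± 0.436 (SE), limma p = 0.0117, exact p = 0.0357). Serpini1, which encodes the protease inhibitor neuroserpin, and Ube2ql1, of the ubiquitin-conjugating enzymes, differed by 1.01 ± 0.441 (SE) and 1.12 ± 0.508 (SE) (limma p = 0.0317 and 0.0375, exact p = 0.0595 and 0.0595). All 5 of these genes missed the criterion with the tissue covariates, at 0.29 to 0.58, and Gng2 also after quantile normalization or median centring. When single arrays were left out, Gng2 missed it in 6 removals, Serpini1 and Ube2ql1 in 5 each, Acvr2a in 1 and Tmem196 in 0.

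Among the dim genes followed through the alternatives, 3 kept the criterion under every alternative run on them (20 each). The dim genes followed were members of the lists and those without overlap that had the smallest p, and the other dim genes were not scored. Rxfp1, the receptor of the hormone relaxin, read 8.706, 8.971 and 8.363 in YSS rats and 6.129 to 7.976 in CT rats. The groups were 1.43 ± 0.408 (SE) apart, or 2.7-fold (limma p = 0.00191, exact permutation p = 0.0119). Cacng5, an auxiliary subunit of AMPA-type glutamate receptors, read 9.337, 9.191 and 8.983 against 7.06 to 8.644 and differed by 1.28 ± 0.389 (SE) (limma p = 0.00319, exact p = 0.0238). Cntnap5bl1, of the contactin-associated cell adhesion proteins, read 7.738, 7.901 and 8.073 against 6.092 to 7.465 and differed by 1.22 ± 0.383 (SE) (limma p = 0.00424, exact p = 0.0238). In all 3 genes the lowest YSS value was above the highest CT value. With the tissue covariates the differences were 0.82 for Rxfp1, 0.81 for Cacng5 and 0.92 for Cntnap5bl1, all still at the criterion.

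Otof, which encodes the calcium sensor otoferlin, Ttn, the giant muscle protein titin, and Sstr4, a somatostatin receptor, were also dim and without overlap, with differences of 0.85 ± 0.27 (SE), 0.91 ± 0.289 (SE) and 0.83 ± 0.272 (SE). In Ttn the gap rested on YSS replicate 2 at 7.108, since the other 2 YSS arrays stood at 6.137 and 6.189, just above the highest CT value of 6.083. A few further higher genes were noticed after their values were seen. They were the axon guidance genes Slit2 (1.39, limma p = 0.0248, exact p = 0.0238) and Sema3a (1.37, limma p = 0.00912, exact p = 0.0238), the thyrotropin-releasing hormone degrading enzyme gene Trhde (1.54, limma p = 0.0142, exact p = 0.0714), the somatostatin receptor gene Sstr2 (0.92, limma p = 0.0422, exact p = 0.0238) and the potassium channel genes Kcnj3 (0.86, limma p = 0.0172, exact p = 0.0476) and Kcnt2 (1.03, limma p = 0.0428, exact p = 0.0595). All YSS arrays lay above all CT arrays in each of these but Trhde.

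Genes of cortex and claustrum, which border the striatum, were also higher in mean. Pyramidal neurons lie in the cortex and not in the striatum. Of 16 genes of the claustrum and deep cortex, 4 were higher at the criterion and 0 lower, beside 0.268% and 0.191% of all named genes. In 11 the mean was higher, and the median was 0.37. Nr4a2 was known from earlier results of these data when the list was chosen, so its call is no independent support. The 4 called genes were Nr4a2, Lxn, Ctgf and Cplx3, the last named after its value was seen (1.29, limma p = 0.0494, exact p = 0.0595). Lxn, the carboxypeptidase inhibitor latexin, read 12.59, 12.61 and 12.02 in YSS rats, and 10.89 to 12.02 in CT rats (difference 0.88 ± 0.363 (SE), limma p = 0.0245, exact p = 0.0238). The lowest YSS value lay just above the highest CT value, both 12.02 as rounded. Ctgf, connective tissue growth factor, read 8.165, 8.389 and 7.441 and overlapped the CT range of 6.332 to 7.741 (difference 0.91 ± 0.43 (SE), limma p = 0.0448, exact p = 0.0476).

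Of 15 genes of cortical pyramidal neurons 13 means were higher and the median was 0.52, but 1 passed the criterion. That gene was Mef2c, a transcription factor of neurons and muscle, with 13.07, 13.36 and 13.3 in YSS rats, 11.95 to 12.73 in CT rats and a difference of 0.84 ± 0.304 (SE) (limma p = 0.0107, exact permutation p = 0.0119). Slc17a7, the vesicular glutamate transporter of cortical neurons, was 2.36 ± 1.27 (SE) higher (limma p = 0.0764, exact p = 0.107) and Tbr1 1.49 ± 0.842 (SE) (limma p = 0.0911, exact p = 0.143). With the mean of this list and that of the choroid plexus as covariates, 108 clusters met the criterion in place of 247, and 50 of them were among the 247. Of the named clusters at the criterion (52 higher and 39 lower) only 44 were followed through the alternatives, and the others were not scored. With the covariates 12 of the 44 kept the criterion. These were Wfs1, Rxfp1, Cacng5, Cntnap5bl1, Npas4, Opalin and 6 globin clusters. The median of the claustrum genes was then 0.08.

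Receptor genes for inhibitory and cholinergic transmission had mostly higher means in YSS rats, with few calls. Of 20 genes of GABA-A and glycine receptors 16 means were higher, 1 passed, and the median was 0.3. Gabra5, the alpha5 subunit of GABA-A receptors, read 9.915, 10.11 and 10.1 in YSS rats against 7.779 to 9.387 in CT rats, without overlap (difference 1.23 ± 0.459 (SE), limma p = 0.0134, exact p = 0.0595). Glra2, a glycine receptor subunit, had a larger difference of 1.56 ± 0.757 (SE) and just missed (limma p = 0.0514, exact p = 0.107). Of 14 muscarinic and nicotinic receptor genes 12 means were higher, 0 passed and the median was 0.31. Chrna7, the alpha7 nicotinic subunit, was nearest, with 0.69 ± 0.289 (SE) (limma p = 0.0266, exact p = 0.0476). Of 21 serotonin and adrenergic receptor genes 17 means were higher, 0 passed and the median was 0.19, with the serotonin receptor gene Htr4 at 0.74 ± 0.246 (SE) (limma p = 0.00617, exact p = 0.0238). Markers of striatal interneurons (18 genes) had 0 calls and a median of 0.07.

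Glutamate receptor genes had few calls. Of 17 ionotropic receptor genes 13 means were higher and 0 passed the criterion, with a median of 0.12. Grin2c, an NMDA receptor subunit, was the most sharply separated of them, though by less than 1.7-fold. It read 8.211, 8.15 and 7.994 in YSS rats and 8.487 to 8.715 in CT rats, a difference of -0.48 ± 0.111 (SE) (limma p = 0.000244, exact permutation p = 0.0119). Grin2a, another subunit, was 0.5 ± 0.17 (SE) higher (limma p = 0.00763, exact p = 0.0357), with YSS replicate 3 at 11.79 within the CT range of 11.21 to 11.93. Of 7 metabotropic receptor genes, Grm8 passed, with 8.193, 8.641 and 8.713 against 6.597 to 8.064 (difference 1.12 ± 0.407 (SE), limma p = 0.0116, exact p = 0.0476).

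Of 31 neuropeptide and stress peptide genes 2 passed, Nts and Mc4r, and the median was 0.08. Mc4r, the melanocortin receptor that regulates feeding, read 7.281, 7.332 and 6.847 in YSS rats and 5.06 to 7.077 in CT rats, with a slight overlap (difference 1.3 ± 0.502 (SE), limma p = 0.0165, exact p = 0.0595). Of 12 calcium-dependent kinase genes Camk1g passed (1.1 ± 0.491 (SE), limma p = 0.0347, exact p = 0.0595) and the median was 0.16. Of 15 imprinted genes, expressed from the copy of 1 parent, 13 means were higher, 0 passed and the median was 0.35, or 0.08 without YSS replicate 3. Opioid genes (8, median 0.01), neurotrophin genes (12, median 0.04), heat shock genes (9, median 0.04), genes of endoplasmic reticulum stress (22, median 0.04, with 1 higher, Wfs1) and purine metabolism genes (15, median 0.05, with 1 higher, Gda) lay near the median of all clusters. Circadian clock genes (17) had a median of -0.14 with 0 passing.

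**Figure D3:**
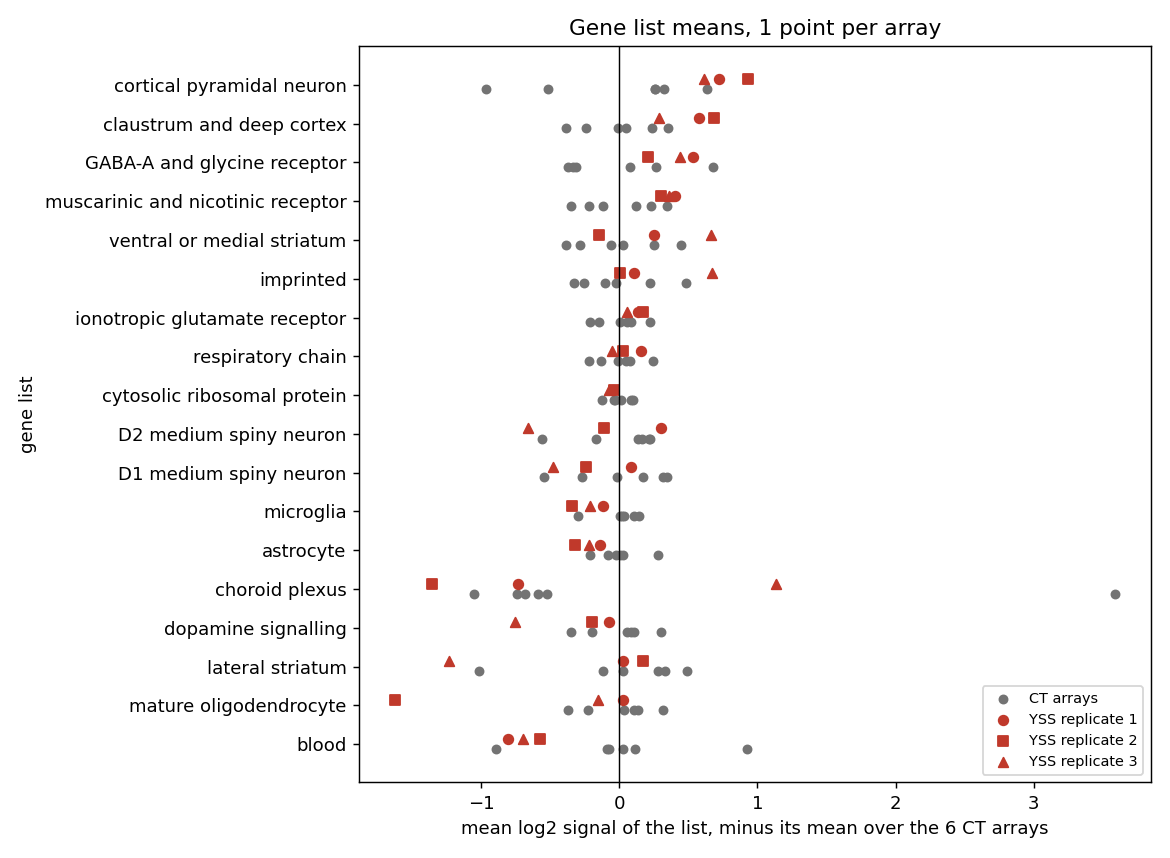
For each gene list, the mean log2 signal of its members in each array minus the mean of that value over the 6 CT arrays, with grey points for CT arrays and red symbols for YSS arrays. YSS replicate 2 is low for mature oligodendrocyte genes (11.7 against 12.9 to 13.6 in CT arrays), CT replicate 6 is high for choroid plexus genes (10.9), and the 3 YSS arrays are close together and low for blood genes (7.72, 7.95 and 7.82).

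Genes of dopamine signalling were lower in mean in YSS rats, with no call. Of 25 genes 19 means were lower, 0 passed and the median was -0.4. Ppp1r1b, which encodes the protein phosphatase inhibitor DARPP-32, differed by -0.76 ± 0.415 (SE) (limma p = 0.079, exact p = 0.0833), Ptpn5, the striatal phosphatase STEP, by -0.7 ± 0.396 (SE) (limma p = 0.0891, exact p = 0.0714) and Drd2 by -0.64 ± 0.407 (SE) (limma p = 0.131, exact p = 0.167). Drd2 stood at 13.92 in YSS replicate 3 and at 15.52 and 15.03 in the other YSS arrays, with CT arrays from 14.71 to 16. Without YSS replicate 3, the YSS array with Kl above bioB, the median of the dopamine genes was -0.06. D1 markers (8 genes) had a median of -0.27 and D2 markers (8 genes) of -0.06, with 0 calls in either.

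The lower genes were led by globins. The 8 clusters of alpha and beta globin, the protein chains of haemoglobin in red blood cells, were among the 39 named lower clusters, by -0.8 to -1.62. The 3 beta globin genes with the largest differences are near copies, so their clusters may share signal and do not count as separate evidence. Their windows of 250 bases before the start (RefSeq, GRCr8, TATA box in capitals) are given to show how alike the copies are.
Hbb-b1, chr1:167643521-167643770 (minus strand): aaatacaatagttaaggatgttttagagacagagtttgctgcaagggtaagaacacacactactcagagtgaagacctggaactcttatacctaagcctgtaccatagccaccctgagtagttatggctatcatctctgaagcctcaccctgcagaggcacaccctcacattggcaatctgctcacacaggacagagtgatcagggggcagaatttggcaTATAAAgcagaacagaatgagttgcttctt
Hbb-bs, chr1:167631631-167631880 (minus strand): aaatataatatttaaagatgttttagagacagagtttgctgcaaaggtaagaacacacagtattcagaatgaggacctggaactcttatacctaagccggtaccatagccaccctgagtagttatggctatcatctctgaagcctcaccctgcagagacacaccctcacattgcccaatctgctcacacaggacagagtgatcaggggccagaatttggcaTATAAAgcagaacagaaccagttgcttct
Hbbl1, chr1:167650236-167650485 (minus strand): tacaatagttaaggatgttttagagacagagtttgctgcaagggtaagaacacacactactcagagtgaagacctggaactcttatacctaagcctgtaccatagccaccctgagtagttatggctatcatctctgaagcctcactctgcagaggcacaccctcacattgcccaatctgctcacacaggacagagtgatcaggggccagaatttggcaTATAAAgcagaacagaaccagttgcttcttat
In pairwise alignments these windows were 93.6% (Hbb-b1 with Hbb-bs), 95.7% (Hbb-b1 with Hbbl1) and 93.3% (Hbb-bs with Hbbl1) identical, and each held the TATA box about the same distance before the start (30, 29 and 32 bases).

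The globin values were tight in YSS rats and wide in CT rats. Hba2, the brightest, read 18.11, 18.11 and 17.99 in YSS rats and 17.81, 18.92 and 19.66 as the lowest, median and highest of CT rats, so that the YSS rats lay within the CT range. The difference was -0.8 ± 0.272 (SE) (limma p = 0.00733, exact p = 0.107). Hbb-b1 read 12.15, 12.42 and 12.17 in YSS rats against 11.37 to 16.14 in CT rats, with a difference of -1.6 ± 0.575 (SE) (limma p = 0.0105, exact permutation p = 0.119). Neither was called by ordinary ANOVA or without the arrays with Kl above bioB. CT replicate 2 was the highest CT array for Hbb-b1, and without it the difference was -1.14, while Hba2 missed the criterion at -0.64. Of 9 measured blood genes all 9 means were lower, 4 passed (all globins) and the median was -0.68. Alas2, the enzyme that starts haem synthesis in red cells, differed by -0.68 ± 0.265 (SE) (limma p = 0.0177, exact p = 0.131).

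Genes of glia formed the next lower group, and in the lists of oligodendrocyte genes 1 rat carried most of the median difference. Of 11 genes of mature oligodendrocytes, the cells that make myelin, all 11 means were lower, 2 passed and the median was -0.53. Mal, a proteolipid of myelin, read 14.13, 12.1 and 14.03 in YSS rats and 13.97 to 14.72 in CT rats. YSS replicates 1 and 3 lay within the CT range and replicate 2 far below it (difference -0.83 ± 0.367 (SE), limma p = 0.0338, exact p = 0.0833). Opalin, an oligodendrocyte membrane glycoprotein, read 12.34, 10.69 and 12.17 against 12.24 to 13.62 (difference -1.14 ± 0.42 (SE), limma p = 0.0124, exact permutation p = 0.0238). Without YSS replicate 2 the differences were -0.17 for Mal and -0.62 for Opalin, and the median of the list was -0.04. Of 12 oligodendrocyte precursor genes 11 means were lower and 0 passed, with a median of -0.35, or -0.03 without that rat.

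The precursor cluster of a microRNA of the same cells, Mir219-2, followed them. The miR-219 microRNAs are abundant in oligodendrocytes and promote their differentiation. The mature strands are printed because this was the only microRNA cluster named at the criterion, with the seed (bases 2 to 8, counted from the 5′ end), which pairs with target transcripts, in capitals (RefSeq, GRCr8, chromosome 3).
rno-miR-219a-5p: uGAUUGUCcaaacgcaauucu
rno-miR-219a-2-3p: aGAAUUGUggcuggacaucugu
The strands have different seeds, and the array cluster does not tell them apart. The Mir219-2 cluster read 9.613, 6.572 and 9.1 in YSS rats and 8.915, 9.655 and 10.3 as the lowest, median and highest of CT rats. Replicate 2 again stood far below while the other 2 lay in the CT range (difference -1.25 ± 0.596 (SE), limma p = 0.0467, exact permutation p = 0.0952). Without YSS replicate 2 the difference in Mir219-2 was -0.32 and missed the criterion. It was also missed when CT replicate 1, 2, 3, 4 or 6 alone was left out, and in 14 of the 22 alternatives in all.

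Gfap, the intermediate filament of astrocytes, and Padi2, a peptidylarginine deiminase, were also lowest by far in YSS replicate 2. Gfap read 11.64, 9.956 and 11.41 in YSS rats against 11.41 to 12.77 in CT rats, and Padi2 9.744, 8.17 and 9.362 against 9.325 to 10.44. In Gfap YSS replicate 3 also lay just below the lowest CT value, both 11.41 as rounded. Their differences were -1.07 ± 0.45 (SE) and -0.92 ± 0.372 (SE) (limma p = 0.0268 and 0.0208, exact p = 0.0595 and 0.0357), and -0.54 and -0.46 without YSS replicate 2. Of 12 astrocyte genes 10 means were lower, Gfap alone passed and the median was -0.14. Sox9, a transcription factor of astrocytes, came close in size at -0.64 ± 0.202 (SE) (limma p = 0.00415, exact p = 0.0595). Of 12 microglia genes all 12 means were lower, 0 passed and the median was -0.2. C1qc, a chain of the complement component C1q, read 5.64, 5.862 and 5.753, below the CT range of 5.923 to 6.36 (difference -0.36 ± 0.127 (SE), limma p = 0.00956, exact p = 0.0238). Of 15 choroid plexus genes 14 means were lower, 0 passed and the median was -0.32. No gene passed among markers of endothelial and mural cells (10 genes, median -0.13), meninges (10, -0.03), ependyma (8, -0.09), thalamus (9, -0.09) or hypothalamus (13, -0.05).

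Among lower genes outside these lists, Foxo1 and Pcp4l1 were bright. Foxo1 encodes a forkhead transcription factor that insulin signalling keeps out of the nucleus. It read 11.67, 11.19 and 10.82 in YSS rats against 11.62, 12.6 and 13.64 as the lowest, median and highest of CT rats. Only YSS replicate 1 reached the CT range, and the difference was -1.46 ± 0.543 (SE), or 2.76-fold (limma p = 0.0129, exact permutation p = 0.0476). Pcp4l1, a relative of a calmodulin-binding Purkinje cell protein, read 10.89, 10.37 and 10.2 against 10.7 to 12.83 (difference -1.23 ± 0.469 (SE), limma p = 0.0156, exact p = 0.0595). Both missed the criterion without YSS replicate 3 and with the tissue covariates (-0.88 and -0.74). Hist2h3c2, a histone gene, was lower by -1.1 ± 0.518 (SE) (limma p = 0.0458, exact p = 0.131) and lost the criterion in 15 of 22 alternatives.

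The dim lower genes that met the criterion without overlap were 3. Id3, an inhibitor of helix-loop-helix transcription factors, read 7.22, 6.848 and 6.777 in YSS rats against 7.465 to 8.316 in CT rats (difference -0.8 ± 0.266 (SE), limma p = 0.00623, exact permutation p = 0.0119). Arhgdib, a signalling inhibitor of blood and immune cells, read 7.609, 7.679 and 7.109 against 7.946 to 9.002 (difference -0.85 ± 0.3 (SE), limma p = 0.00955, exact p = 0.0238). Adamts6, a secreted metalloprotease, differed by -0.77 ± 0.356 (SE) (limma p = 0.042, exact p = 0.0238). Leaving out some single arrays moved each of these under the 1.7-fold limit or past the limit of p, with differences of -0.94 to -0.69, -0.96 to -0.67 and -0.91 to -0.58.

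**Figure D4:**
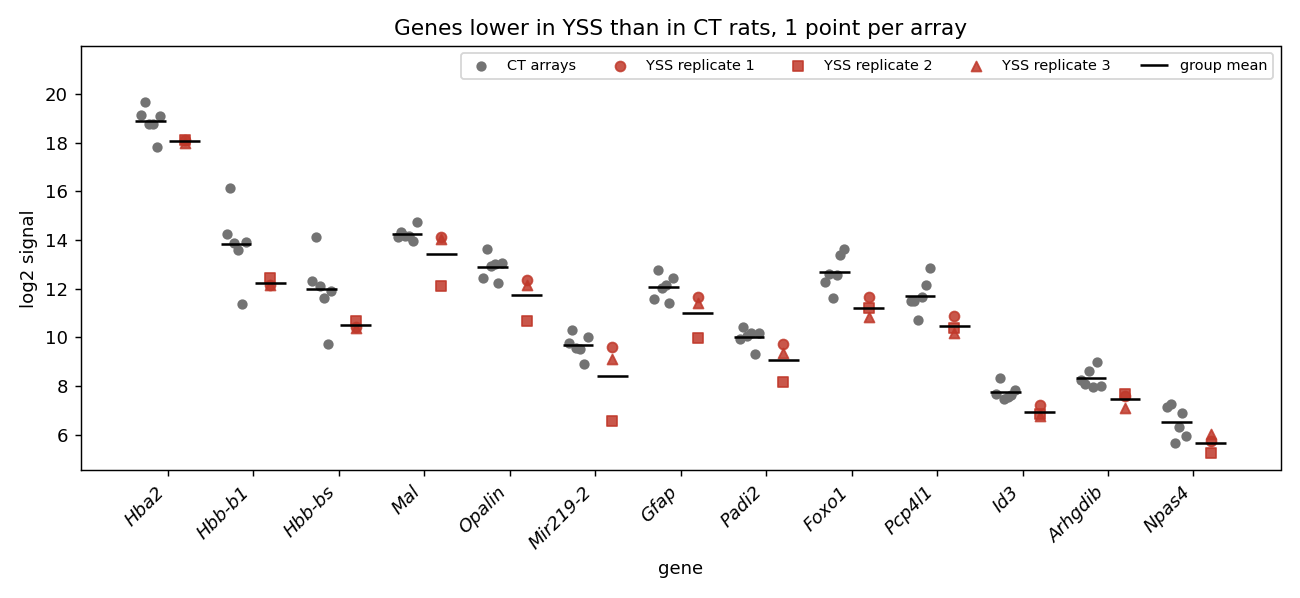
Log2 signals of 13 genes lower in YSS rats at the criterion, with 1 grey point per CT array, 1 red symbol per YSS array and a bar at each group mean. YSS replicate 2 (square) is the lowest YSS array in Mal (12.1), Opalin (10.69), Mir219-2 (6.572), Gfap (9.956) and Padi2 (8.17), while the 3 YSS values of Hba2 lie within 17.99 to 18.11.

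Immediate early genes respond to neuronal activity. Of 19 genes 13 means were lower and 6 higher in YSS rats, Npas4 alone passed and the median was -0.08. Npas4, a transcription factor that calcium entry induces in neurons, read 5.751, 5.257 and 6.025 in YSS rats and 5.683, 6.611 and 7.261 as the lowest, median and highest of CT rats. The ranges overlapped, and the difference was -0.87 ± 0.286 (SE) (limma p = 0.006, exact permutation p = 0.0833). All these values lie below bioB. Bdnf, the brain-derived neurotrophic factor gene, was also dim, at 5, 5.084 and 4.935 in YSS rats against 4.42 to 4.877 in CT rats. Its groups did not overlap, by a small difference of 0.34 ± 0.129 (SE) (limma p = 0.0159, exact permutation p = 0.0119). Fos (-0.14, limma p = 0.481, exact p = 0.464), Arc (-0.14, limma p = 0.732, exact p = 0.845) and Egr1 (-0.11, limma p = 0.661, exact p = 0.667) did not pass.

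Of 18 glucocorticoid-responsive genes 0 passed, and the median was 0.1. Hsd11b1, the enzyme that regenerates active glucocorticoid inside cells, read 9.263, 10.09 and 9.448 in YSS rats, above a CT range of 8.67 to 9.243. Its difference of 0.59 ± 0.15 (SE), or 1.51-fold, was below the fold limit (limma p = 0.000686, exact permutation p = 0.0119). Of 22 genes of the families that the study followed by qPCR after footshock 0 passed and the median was 0. Fmo2, a flavin-containing monooxygenase, differed by -0.01 ± 0.266 (SE), Pdk4, a kinase that restrains pyruvate dehydrogenase, by 0.07 ± 0.317 (SE) and Ptpro, a receptor tyrosine phosphatase, by -0.09 ± 0.445 (SE) (limma p = 0.983, 0.832 and 0.848, exact p = 0.976, 0.881 and 0.798). In that family Ptprg was higher without overlap but under the fold limit (0.69 ± 0.266 (SE), limma p = 0.0167, exact p = 0.0357). The oxytocin gene Oxt read 5.676, 5.739 and 5.557 in YSS rats and 5.185 to 8.98 in CT rats (difference -1.26 ± 1.55 (SE), limma p = 0.425, exact p = 0.381). Its receptor gene Oxtr differed by 0.08 ± 0.134 (SE) (limma p = 0.543, exact p = 0.583).

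Genes that every cell uses were nearly level. Of 103 cytosolic ribosomal protein genes 0 passed and the median was -0.04, and of 74 respiratory chain genes 0 passed and the median was 0.04. Of 10 reference and housekeeping genes 0 passed and the median was 0.08, with Hprt1, a purine salvage enzyme often used as a reference, the most apart at 0.51 ± 0.221 (SE) (limma p = 0.0316, exact p = 0.0357). A list of 23 measured genes that the study tabulated for its comparisons among SR, SS and CT rats had 5 higher and 1 lower at the criterion and a median of 0.4. Its members were not all changed in SR rats against CT rats. The study chose that list on arrays that include the same CT rats, so its direction is not independent evidence. The 5 were Gda, Lxn, Nts, Pcdh19 and Wfs1, of which Pcdh19, a protocadherin gene, differed by 0.87 ± 0.406 (SE) (limma p = 0.0422, exact p = 0.0476).

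Most clusters at the criterion carried no gene name, and some of them lay beside a called gene. Of 153 unnamed clusters with a position 16 (10.5%) lay within 50000 bases of a named cluster called in the same direction, and 9 of them overlapped it, against 0.348% of all 47641 unnamed clusters. The largest difference among them was in a cluster that the array names sucher, 78 bases from Pde1a. It read 12.12, 12.72 and 12.52 in YSS rats and 7.107 to 11.68 in CT rats (difference 2.43). The cluster barshey lay 1071 bases from Rasgrf2 (1.84), and verly lay 261 bases from the lower gene Kcnj10, a potassium channel of glia (-0.82 beside -0.81). Such pairs may read 1 transcript and were chosen by the same contrast, so they add no independent support.

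The other yoked group gives a comparison of shocked rats with each other, with the same YSS arrays entering both contrasts. Against the 3 YSR rats, 414 clusters (0.601%) met the criterion and 0 had an adjusted p under 0.05 (smallest 0.419, with 4164 at an unadjusted p under 0.05). The YSS minus YSR difference was 1.21 for Rxfp1, 1.19 for Cacng5 and -0.98 for Id3, each with an unadjusted p under 0.05. It was 2.16 for Nr4a2, 1.17 for Wfs1 and 0.8 for Gda, none of which reached that limit, and YSR values of Nr4a2 ran from 8.27 to 13.6. It was -1.61 for Hbbl1 and -0.77 for Hba2, close to their differences from CT rats. Fmo2 (-1.1), Pdk4 (-1.2) and Ptpro (-1.25), which did not pass against CT rats, had an unadjusted p under 0.05 against YSR rats. Of the YSR arrays 2 of 3 had Kl above bioB, against 1 of 3 YSS arrays, and the part of that tissue in these values was not tested.

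With 3 YSS rats a single array can carry a call. Among the removals of single arrays, Gng2, Mir219-2 and Hist2h3c2 each missed the criterion in 6, and Serpini1, Ube2ql1 and Ctgf each in 5. Camk1g and Hba2 each missed it in 4, Lxn and Npas4 each in 3, and Nts in 2. The number of clusters at the criterion ran from 151 without CT replicate 6 to 548 without YSS replicate 1. Without YSS replicate 2 it was 216, of which 94 were higher and 93 were among the 247. When CT replicate 6 and YSS replicate 2 were left out together, a setting added after the values were seen, 192 clusters met the criterion, 66 of them higher and 66 of them among the 247. In that setting 17 of the 44 named clusters that were followed kept it. Wfs1 (1.91), Gda (1.4), Rxfp1 (1.06) and Cacng5 (1.11) did, and Nr4a2 (2.2) and Gfap (-0.47) did not. Without the arrays with Kl above bioB (CT replicate 6 and YSS replicate 3 among these 9) 279 clusters met it, 140 higher and 139 lower, with 135 among the 247.

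**Figure D5:**
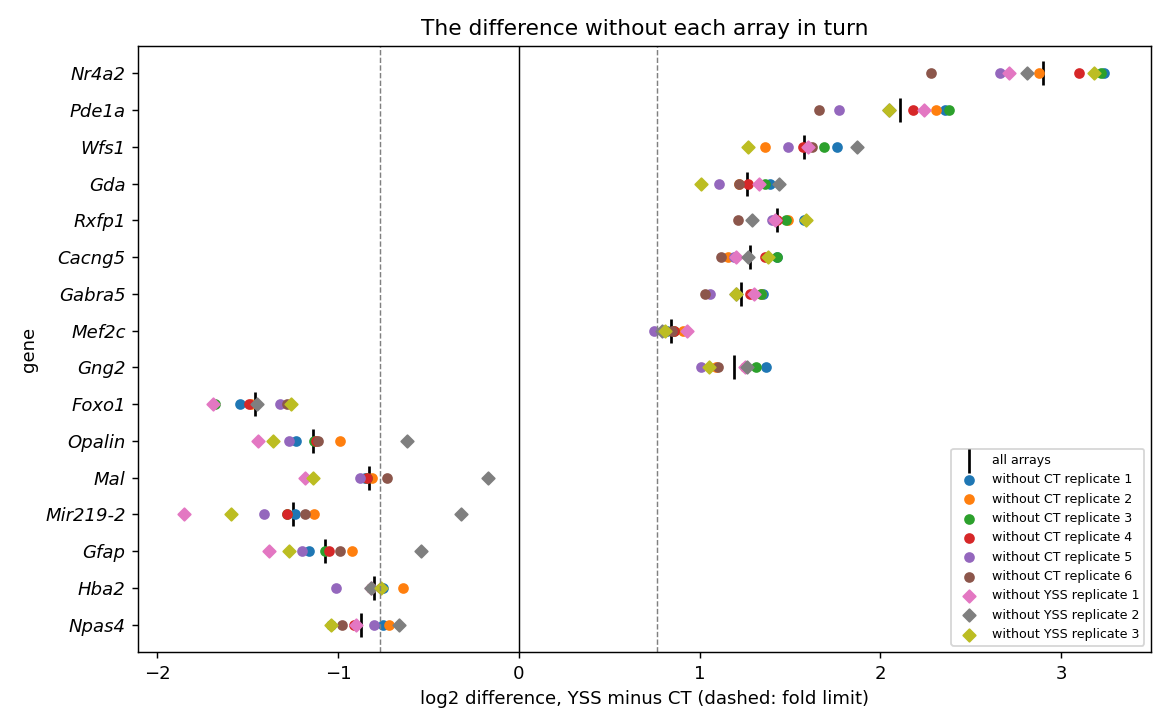
The log2 difference, YSS minus CT, of 16 genes with all arrays (black bar) and with each array left out (circles for CT arrays, diamonds for YSS arrays), with dashed lines at the 1.7-fold limit. Nr4a2 is at 2.28 without CT replicate 6, and Mal moves to -0.17 and Mir219-2 to -0.32 without YSS replicate 2, while Wfs1 stays between 1.27 and 1.87.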

How the data were processed

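Dorsal striatum of 24 rats was hybridized to Affymetrix rat transcriptome arrays, 1 per rat. The authors used the Affymetrix Expression Console (version and algorithm not given in the sources used here) and deposited log2 signals. Another deposited file supplied the annotation, per-group log2 averages (used to check labels: each matched its own group best) and fold changes and p-values of the authors, which were not used. Names came from its symbol column, matched to RefSeq symbols: 20383 clusters had 1 name (46 by accession), 800 several and 47659 none.

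The 5 group means were fitted to 68842 clusters in limma 3.58.1 (R 4.3.3, prior of 3.79 degrees of freedom), with 2-sided tests and p-values adjusted by Benjamini-Hochberg over all clusters. The criterion was an unadjusted p under 0.05 with 1.7-fold. Single genes were also tested by exact permutation over 84 regroupings (smallest p 0.0119). In lists the cluster with the highest mean stood for a gene. Named genes were the 12 largest differences each way among bright clusters at the criterion, the 6 with the smallest p each way among dim ones without overlap, up to 3 members of each list at the criterion or else 2, microRNA clusters, and genes known from earlier results. Members and lists were chosen with earlier results of these data known. A few measured genes are not reported here. The calling was tested on simulated data. Precision is set by the number of rats. Data were handled with the data.table package (1.17.8) and drawn with matplotlib 3.10.9 in Python 3.11.15.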

Additional observations from a re-analysis of the deposited data

Results flagged for a closer look

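In 142 groups of CT arrays tested for an outlying array, 8 had 1 array further from the rest than Dixon's critical value, and chance alone gives about 1 in 20 groups. Of these, 4 were high in CT replicate 6, the array with Kl above bioB. Enpp2, a choroid plexus and oligodendrocyte gene, was at 18.28 there against 14.24 to 15.16 in the other CT arrays, and the water channel gene Aqp1 was at 8.12 against 5.544 to 5.68. Fmo2 was at 7.322 against 5.737 to 6.133, and the mean of the choroid plexus genes at 10.87 against 6.235 to 6.759. The other 4 were in CT replicates 2, 4 and 5. Pomc, the precursor of opioid and melanocortin peptides, was at 4.832 in CT replicate 4 against 4.559 to 4.657, the serotonin receptor gene Htr4 at 6.678 in CT replicate 2 against 7.509 to 7.99, and Cox8c, a subunit of cytochrome oxidase, at 4.743 in CT replicate 5 against 4.069 to 4.312. The mean of the microglia genes was 8.608 in CT replicate 5 against 8.911 to 9.049. None of these 6 genes met the criterion between YSS and CT rats.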

How the results depend on the processing

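The count of 247 clusters at the criterion stayed within 1.5 times that value under quantile normalization (235), median centring (234, of which 58.5% were higher against 66.8%), a fit of CT and YSS arrays only (315), moderation with a trend and robust settings (249) and after removal of every array above bioB for Kl (279, 140 higher and 139 lower, 50.2% higher, with 135 shared). It was 68 among clusters above bioB over 24 arrays and 61 (24 higher and 37 lower) among those above it in CT arrays, where fewer clusters were tested, 78 with 1 cluster per gene, 139 by ordinary ANOVA, 108 with the tissue covariates, 508 at a fold limit of 1.5, 85 at a fold limit of 2 and 629 without CT replicates 1 and 3. Leaving out single arrays gave 151 to 548. The count at an adjusted p under 0.05 was 0 in all settings run, with smallest adjusted p-values from 0.183 to 1. Of the 44 named clusters that were followed none reversed, and 12 to 44 kept the criterion, depending on the setting. The cause of these changes was not tested. The median over all clusters moved from 0.014 to -0.003 and -0.004 under the 2 scalings. With a replicate block the count was 165 (130 shared), and 22 of the 44 named clusters that were followed kept the criterion. Deviations of CT and YSS arrays with the same replicate number correlated at 0.51, 0.093 and -0.16, so the numbers were not taken to pair rats. The number of arrays limits the precision throughout.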
